A study of Mus musculus with 24 samples.

Results

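The 10 genes described here belong to the BCL2 family, which sets whether a cell keeps or breaks the outer membrane of its mitochondria. They were taken by symbol from a table of 46477 gene symbols, as family members that act in the survival and death of blood cells. All 10 were found, and all 10 were among the 14325 genes that passed the filter on low counts. RNA was read in cells of mouse liver that were enriched with magnetic beads for CD11b and Ly6G, the surface pair of granulocytic myeloid-derived suppressor cells (G-MDSCs). Mice had 70% of the liver removed (hepatectomy) and were sampled on postoperative day (POD) 1, 2, 3 or 4, and they were set against mice that had a midline laparotomy without resection (sham) on the same days. All were wild-type BALB/C males, 8 weeks old at operation, and each of the 8 groups has 3 libraries, 24 in all. Nothing in the labels says whether the libraries of a group are separate animals or pools, so p-values measure the spread between these libraries only.

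Anti-apoptotic members (MCL1, BCL2, BCL-XL from Bcl2l1, and A1 from the Bcl2a1 genes) hold the pore-forming effectors BAX and BAK in check, and BH3-only members (BIM from Bcl2l11, NOXA from Pmaip1, PUMA from Bbc3) release them. Neutrophils are short-lived cells that depend on MCL1, a protein of rapid turnover, and mouse neutrophils also use A1. Loss of BIM lengthens the life of mouse neutrophils.

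In GRCm38, with the gene bounds of GENCODE M21, the survival genes are Mcl1 (chr3:95658788-95663176, plus strand), Bcl2 (chr1:106538178-106714274, minus), Bcl2l1 (chr2:152780668-152831728, minus), Bcl2a1b (chr9:89199209-89207827, plus) and Bcl2a1d (chr9:88723285-88731914, minus). The effector genes are Bax (chr7:45461697-45466898, minus) and Bak1 (chr17:27019810-27029009, minus). The BH3-only genes are Bcl2l11 (chr2:128126038-128162547, plus) and Bbc3 (chr7:16308393-16318205, plus), with Pmaip1. All 10 are annotated as protein-coding.

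The mouse A1 genes are near-identical copies on chromosome 9, so their counts need the sequences beside them. In the coding sequences of GENCODE M21, Bcl2a1b and Bcl2a1d had 519 bases each and differed at 6 of them, an identity of 98.8%. Of all 50-base words in the Bcl2a1b transcript, 57.6% also occur in the Bcl2a1d transcript. The first 90 coding bases of both are printed 5′ to 3′ to show how little separates their reads, with the bases that differ in capitals.
Bcl2a1b: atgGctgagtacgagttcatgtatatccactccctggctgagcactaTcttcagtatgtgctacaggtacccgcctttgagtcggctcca
Bcl2a1d: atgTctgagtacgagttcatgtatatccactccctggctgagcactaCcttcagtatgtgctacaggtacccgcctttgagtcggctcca
Only 2 of these 90 bases differ, and no other stretch of 90 coding bases holds more differences. A read that covers no differing base, such as one made of a shared 50-base word, cannot be assigned to 1 gene. Values for Bcl2a1b, Bcl2a1d and the copies Bcl2a1a and Bcl2a1c, which were counted under their own symbols, are therefore uncertain as single genes. For POD1 and over the 4 days, a test of their summed counts is given beside them.

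Promoter windows from RefSeq (GRCm38.p6, 250 bases before to 50 after a start) were found for 9 of the 10 members. They were searched on both strands for the FOXO word GTAAACA, the PU.1 word GAGGAAGT, the STAT word TTCNNNGAA and the NF-kB consensus. The 9 members had 14 windows between them. The words were picked after the sequences had been seen, so the shares over all windows given beside them are no test. The FOXO word, named for factors with a known part in Bcl2l11 and Bbc3 regulation, occurs in 3.65% of all 32851 windows and was found for Bcl2l11 and for 1 start of Bbc3. The windows of both genes are shown with the word in capitals, on the other strand for Bbc3. The Bcl2l11 stretch is chr2:128125788-128125887 and the Bbc3 stretch chr7:16310024-16310170, both on the plus strand.
Bcl2l11: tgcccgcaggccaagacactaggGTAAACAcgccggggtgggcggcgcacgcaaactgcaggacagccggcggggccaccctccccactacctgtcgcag
Bbc3: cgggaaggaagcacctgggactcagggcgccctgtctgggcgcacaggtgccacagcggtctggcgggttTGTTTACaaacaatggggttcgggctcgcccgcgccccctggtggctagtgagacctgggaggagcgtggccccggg
The PU.1 word, named for a factor of the myeloid lineage, occurs in 3.20% of all windows. It was found in the windows of all 4 A1 copies, and for Bak1 on the other strand. Stretches of 148 bases are shown for Bcl2a1a (chr9:88956746-88956893, plus strand), Bcl2a1b (chr9:89199055-89199202, plus strand) and Bcl2a1d (chr9:88731877-88732024, minus strand).
Bcl2a1a: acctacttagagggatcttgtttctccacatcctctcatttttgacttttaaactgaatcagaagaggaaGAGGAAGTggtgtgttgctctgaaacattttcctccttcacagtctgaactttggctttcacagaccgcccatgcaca
Bcl2a1b: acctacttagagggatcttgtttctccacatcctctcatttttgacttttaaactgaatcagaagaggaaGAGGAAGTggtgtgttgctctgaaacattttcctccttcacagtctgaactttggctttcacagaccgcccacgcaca
Bcl2a1d: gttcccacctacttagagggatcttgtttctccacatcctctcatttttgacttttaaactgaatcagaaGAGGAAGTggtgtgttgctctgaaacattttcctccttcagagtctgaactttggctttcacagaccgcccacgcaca
The copies share nearly all of these bases, with the PU.1 word in capitals. The NF-kB consensus, present in 8.46% of windows, was found for Bcl2l1 and for another start of Bbc3. The STAT word, present in 8.30%, was in no member's window. A match is a stretch of letters and was not tested for binding.

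The libraries held between 10390216 and 16949088 counts and varied in how many transcripts of other liver cells they carried. Levels are CPM, the read counts scaled to a common library total with TMM factors. Averaging log2(CPM + 1) over 19 sinusoidal endothelial markers, here in CPM without TMM factors, gave each library an endothelial score. This score was no more than 8.19 in 9 libraries and no less than 10.26 in the 15 others. The low-score set held all 3 hepatectomy POD1 libraries, replicates 1 and 2 of sham POD1, replicate 1 of hepatectomy POD3, replicate 1 of hepatectomy POD4, and replicates 2 and 3 of sham POD4. The summed level of the 14 neutrophil markers was 161457 to 191211 CPM in hepatectomy POD1 and 7174 to 116235 CPM in sham POD1. The summed level of the 19 sinusoidal markers was 1712 to 1919 CPM in hepatectomy POD1 and 2197 to 42242 CPM in sham POD1. At POD1 the test called 1 of 12 tested neutrophil markers higher, 17 of 19 sinusoidal and 8 of 9 B cell markers lower. It also called 7 of 8 stellate cell and 6 of 9 Kupffer cell markers lower (1 Kupffer cell marker was higher), and 3 of 6 monocyte markers lower. Among all genes tested at POD1, 13.0% were called higher and 28.0% lower (edgeR). The summed monocyte markers were 10682 to 12188 CPM in hepatectomy POD1 and 826 to 5666 CPM in sham POD1. Ms4a1, a defining B cell marker, was at 0 in all 3 hepatectomy POD1 libraries. None of the 14 neutrophil markers was at 0 in all libraries of any group, and the 15 high-score libraries held many endothelial transcripts beside them. In such bulk libraries, fewer cells of a type and less RNA per cell cannot be told apart.

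Mcl1 was the most abundant family transcript in every group. Per kilobase of exon, it stood in hepatectomy POD1 at 1493 ± 56.1 CPM per kb (SD, n = 3) and in sham POD1 at 772 ± 540.1 CPM per kb. In hepatectomy POD1, Bcl2l1 came next at 206 ± 15.3 CPM per kb, and its range overlapped that of Bcl2a1b at 182 ± 10.3 CPM per kb. The copy Bcl2a1a, outside the 10 members, stood at 123 ± 3.91 CPM per kb in that group. The place of Bcl2l1 above A1 therefore holds only for the A1 copies taken singly. Bcl2l11 at 82.7 ± 14.2, Bak1 at 51.7 ± 5.21 and Pmaip1 at 38.2 ± 3.24 CPM per kb followed without overlap between neighbours. Bcl2a1d at 22.6 ± 3.51, Bbc3 at 20.2 ± 5.52 and Bax at 15.3 ± 2.83 CPM per kb overlapped their neighbours, and Bcl2 was last at 0.134 ± 0.0614 CPM per kb. In sham POD1, neighbours overlapped from Pmaip1 in the second place down to Bax in the seventh, and again from Bbc3 to Bcl2. In the 6 groups of the later days, Bak1 or Bax came second in place of Bcl2l1.

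**Figure D1:**
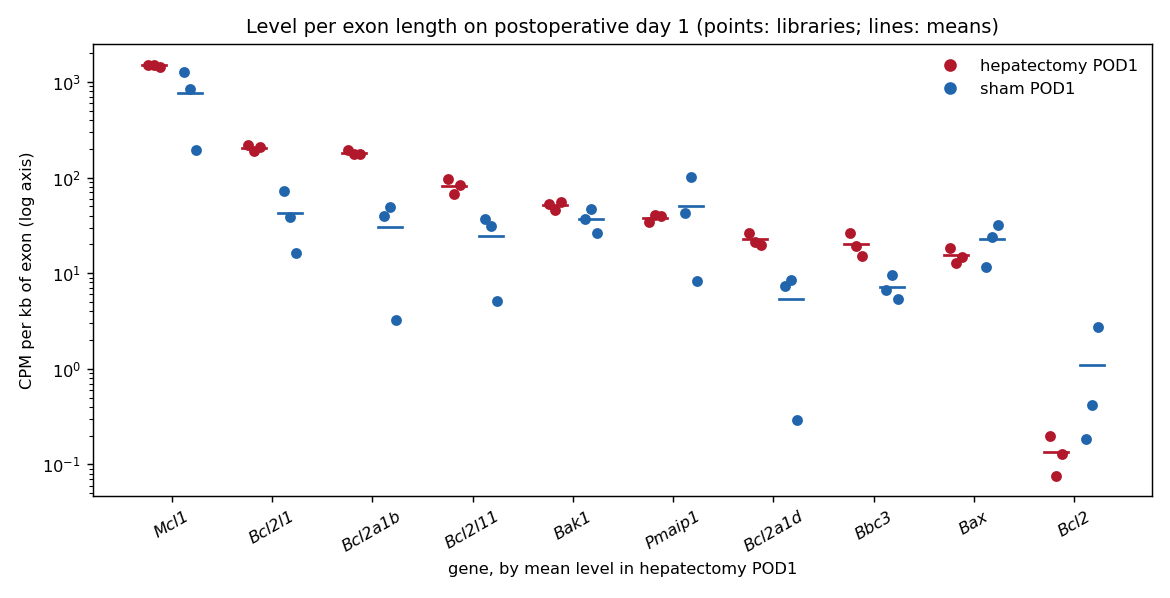
Levels of the 10 genes on POD1 in CPM per kilobase of exon on a log axis, ordered by the mean in hepatectomy POD1, with 3 libraries (points) and the mean (line) for hepatectomy and sham. Mcl1 is highest in both groups, at 1493 CPM per kb after hepatectomy and 772 after sham, and the sham points scatter more widely than the hepatectomy points for most genes.

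Hepatectomy was set against sham on each day to ask how the operation changes the transcripts of these cells. On POD1, 4 of the 10 members rose (Bcl2l1, Bcl2a1b, Bcl2l11 and Bbc3) and 1 fell (Bcl2), at an adjusted p under 0.05 in edgeR's quasi-likelihood test. Over all genes tested that day, 40.9% were called, 13.0% higher and 28.0% lower. The median log2 fold change of the members was 1.22, against -0.42 over all genes. Both anti-apoptotic and BH3-only genes were among the 4 that rose. For 6 members, Mcl1 and Bcl2a1d besides the 4, every hepatectomy library lay above every sham library in TMM-scaled CPM, where 49.4% of all genes had groups that did not overlap in either direction. Without TMM factors this held for 4 members, since Mcl1 and Bbc3 overlapped. Every hepatectomy library then lay below every sham library for Bcl2, at 0.357 to 0.839 CPM against 1.12 to 34.4 CPM. The share of all genes without overlap was computed only with TMM factors. Without replicate 3 of sham POD1, 1 member was called (Bcl2l1), without replicate 1 of hepatectomy POD1 2 (Bcl2 and Bcl2l1), and without replicate 2 or 3 of hepatectomy POD1 3 each.

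Bcl2l1, which encodes the survival protein BCL-XL, had 998, 865 and 968 CPM in hepatectomy POD1, against 329, 179 and 74.9 CPM in sham POD1. Every hepatectomy library lay above every sham library by a wide margin. The log2 fold change was 2.28 ± 0.62 (approximate SE; edgeR adjusted p = 0.0088). The highest of the 21 libraries outside hepatectomy POD1 was replicate 3 of sham POD4 at 339 CPM. Bcl2l1 was the single member that stayed past the threshold in each of the 24 fits that left out 1 library, with a log2 fold change from 1.89 to 2.89. Its call was lost when the endothelial score was a covariate (1.42, edgeR adjusted p = 0.067).

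The A1 genes stood low in sham. Bcl2a1b had 159, 145 and 144 CPM in hepatectomy POD1, against 32.6, 40.3 and 2.63 CPM in sham POD1. The groups did not overlap, and replicate 3 of the sham group stood far under the other 2. The log2 fold change was 2.57 ± 0.87 (edgeR adjusted p = 0.0249). Bcl2a1d had 23.0, 18.4 and 17.2 CPM in hepatectomy POD1, against 6.29, 7.29 and 0.253 CPM in sham POD1. Its groups did not overlap either, but its log2 fold change of 2.10 ± 0.95 did not pass (edgeR adjusted p = 0.081). It was called by DESeq2 at 2.17 (DESeq2 adjusted p = 0.0429). The 4 copies summed gave 2.78 ± 0.90 (edgeR adjusted p = 0.0211). Without replicate 3 of sham POD1 the value for Bcl2a1b was 2.03 (edgeR adjusted p = 0.0799), and without replicate 1 of hepatectomy POD1 it was 2.52 (edgeR adjusted p = 0.0554).

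Mcl1 had 5214, 5213 and 4881 CPM in hepatectomy POD1, against 4328, 2919.7 and 668 CPM in sham POD1. The hepatectomy libraries lay close together and above all 3 sham libraries, of which replicate 1 came near them. That order depends on the TMM factors: without them the CPM were 2406, 2664 and 2267 in hepatectomy POD1, against 2882, 2471 and 919.6 in sham POD1, and the groups overlapped. The log2 fold change was 0.95 ± 0.65 and did not pass (edgeR adjusted p = 0.243), and it was 0.23 with library size alone. Mcl1 was called by limma voom with quality weights at 0.76 (limma adjusted p = 0.0285), which called 55.1% of all genes. Bcl2, the founding survival gene of the family, was low in hepatectomy libraries, where 14, 5 and 8 counts gave 1.82, 0.698 and 1.17 CPM in hepatectomy POD1, against 1.68, 3.79 and 25.0 CPM in sham POD1. Replicate 3 of sham POD1 stood far above all others, and the groups overlapped with TMM factors but not without them. Bcl2 fell by 3.05 on the log2 scale (SE 0.97, edgeR adjusted p = 0.0186). Without replicate 3 of sham POD1 the value was -1.15 (edgeR adjusted p = 0.348). Without replicate 2 or replicate 3 of hepatectomy POD1 its adjusted p in edgeR was 0.0717 or 0.058.

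Of the BH3-only genes, Bcl2l11, whose product BIM binds all survival members, had 772, 544 and 676 CPM in hepatectomy POD1, against 299, 254 and 41.3 CPM in sham POD1. The groups did not overlap. The log2 fold change was 1.75 ± 0.69, just inside the threshold (edgeR adjusted p = 0.049). With library size alone it was 1.01 and the call was lost (edgeR adjusted p = 0.0814), and 17 of the 24 fits without 1 library lost the call, with adjusted p up to 0.171. Bbc3, a known p53 target that encodes PUMA, had 55.6, 40.6 and 32.4 CPM in hepatectomy POD1, against 14.2, 20.3 and 11.4 CPM in sham POD1. With TMM scaling every hepatectomy library was higher, with a log2 fold change of 1.49 ± 0.45 (edgeR adjusted p = 0.0149). With library size alone the groups overlapped, and the value was 0.54 and was not called (edgeR adjusted p = 0.269). Without replicate 1 of hepatectomy POD1 it was 1.26 (edgeR adjusted p = 0.0641), and without replicate 3 of sham POD1 1.31 (edgeR adjusted p = 0.0711). Pmaip1, whose product NOXA targets MCL1, had 94.2, 111 and 108 CPM in hepatectomy POD1, against 116, 277 and 22.6 CPM in sham POD1. The sham libraries lay on both sides of the hepatectomy libraries, and the log2 fold change of -0.41 ± 0.78 did not pass (edgeR adjusted p = 0.695). Pmaip1 was called lower by limma voom with quality weights at -1.09 (limma adjusted p = 0.0307), which called 55.1% of all genes.

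Neither effector passed. Bak1 had 127, 111 and 135 CPM in hepatectomy POD1, against 88.8, 113 and 63.6 CPM in sham POD1, and Bax had 28.9, 20.1 and 23.5 CPM, against 18.4, 38.1 and 51.0 CPM. The groups overlapped for both genes. The log2 fold changes were 0.49 ± 0.23 for Bak1 (edgeR adjusted p = 0.0855) and -0.57 ± 0.48 for Bax (edgeR adjusted p = 0.341). Bak1 was called by DESeq2 at 0.59 (DESeq2 adjusted p = 0.0292). The sign for Bak1 depends on the scaling: with library size alone it was -0.44, where the median of all genes was -1.43 in place of -0.42. The same fit called Bax lower at -1.73 (edgeR adjusted p = 0.0397), and it called 8676 of 14325 genes. Exons of Bak1, Bax, Bcl2 and Bcl2a1b overlap those of another annotated gene, and the strand setting of the counting is not given in the sources used here, so some of their counts may belong to the neighbour.

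**Figure D2:**
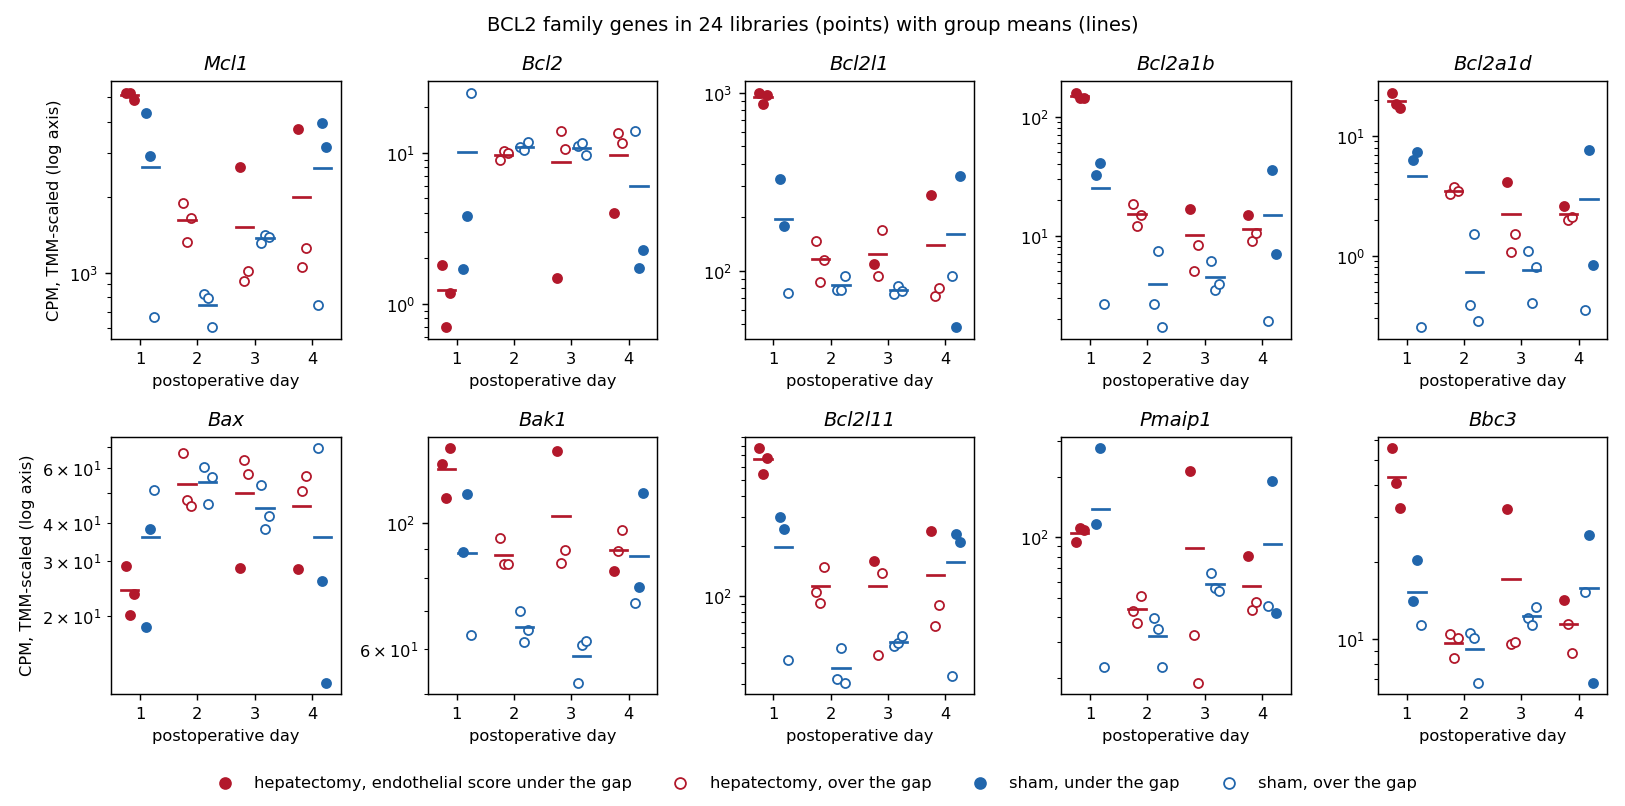
Scaled CPM on a log axis for each gene in 24 libraries by postoperative day, hepatectomy left of sham, with group means as lines. Filled points are the 9 libraries whose endothelial score did not exceed 8.19, and open points the other 15. Bcl2l1, Bcl2a1b and Bcl2l11 stand highest in the 3 hepatectomy POD1 libraries, and Bcl2 is low in all filled points.

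The composition of the libraries moved with these differences. Mcl1 had 4881 to 5214 CPM in hepatectomy POD1, 2919.7 to 4328 CPM in replicates 1 and 2 of sham POD1, 2643 to 3954 CPM in the 4 low-score libraries of POD3 and POD4, and 607 to 1904 CPM in the 15 high-score libraries. Bcl2 ran the other way, with 0.698 to 1.82, 1.68 to 3.79, 1.48 to 4.01 and 8.89 to 25.0 CPM in the same sets. For both genes all low-score libraries, of either operation, lay on one side of all high-score libraries. Bcl2l1 was 865 to 998 CPM in hepatectomy POD1 but 179 to 329, 48.2 to 339 and 71.9 to 170.4 CPM in the other sets. Bcl2a1b likewise stood at 144 to 159 CPM in hepatectomy POD1, at 32.6 to 40.3 and 7.02 to 35.5 CPM in the other low-score sets, and at 1.70 to 18.5 CPM in the high-score set. For both genes the hepatectomy POD1 libraries lay apart from the other low-score libraries, as they did in the score itself (3.80 to 4.57, against 5.87 to 8.19) and in the endothelial marker Stab2 (20.0 to 64.3 CPM, against 82.2 to 456 CPM). Bcl2l11 was 544 to 772 CPM in hepatectomy POD1, 254 to 299 and 162 to 246 CPM in the other low-score sets, and 30.3 to 150.2 CPM in the high-score set. S100a8, a neutrophil marker, was 37126 to 43558, 7134 to 23379.8, 10992 to 27766.5 and 524 to 6177 CPM in the same order of sets. Other neutrophil genes ran differently: in that order, Csf3r was 6006 to 6800.2, 11742 to 13719, 7322 to 14626 and 836 to 4544 CPM, and Ly6g, a marker of the bead enrichment, was 105 to 228, 66.2 to 318, 126 to 1095 and 7.97 to 139.8 CPM. Neither was highest in hepatectomy POD1. With the score as a covariate, chosen after the data were seen, none of the 4 genes that rose was called at POD1, and the signs of Mcl1 (-0.67, edgeR adjusted p = 0.0431), Bcl2 (0.62) and Bax (0.79) were reversed. That fit called Mcl1 and Pmaip1 lower, Pmaip1 at -2.17 (edgeR adjusted p = 0.0086), against -0.41 without the covariate. Over all genes it called 6485 of 14325 on POD1. On POD1 the scores of the operations do not overlap, so operation and composition cannot be told apart on that day.

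Ratios of counts within a library do not depend on its scaling. For 100 Mcl1 counts, hepatectomy POD1 held 16.6 to 19.8 Bcl2l1 counts and sham POD1 6.14 to 11.2. The ratio of Bcl2l11 was 10.4 to 14.8 after hepatectomy and 6.18 to 8.68 after sham, and that of Bcl2a1b was 2.77 to 3.04 after hepatectomy and 0.394 to 1.38 after sham. None of these 3 ratios overlapped between the operations on POD1, and the share of such ratios over all genes was not computed. Replicate 3 of hepatectomy POD3, a high-score library, lay inside the hepatectomy POD1 ranges for Bcl2l1 (16.8) and Bcl2l11 (13.5). Pmaip1 ran the other way, at 1.81 to 2.22 counts per 100 Mcl1 counts in hepatectomy POD1 and 2.68 to 9.47 in sham POD1. Bbc3, at 0.664 to 1.07 in hepatectomy POD1 and 0.327 to 1.71 in sham POD1, overlapped. Among the A1 copies, 100 Bcl2a1b counts came with 65.7 to 69.5 Bcl2a1a counts in hepatectomy POD1 and 28.8 to 39.1 in sham POD1. Outside hepatectomy POD1, replicate 1 of hepatectomy POD3 was the highest for that ratio, at 57.8. Bax per 100 Bak1 counts was 17.4 to 22.8 in hepatectomy POD1 and 20.7 to 80.2 in sham POD1. These ratios are descriptions with no test.

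**Figure D3:**
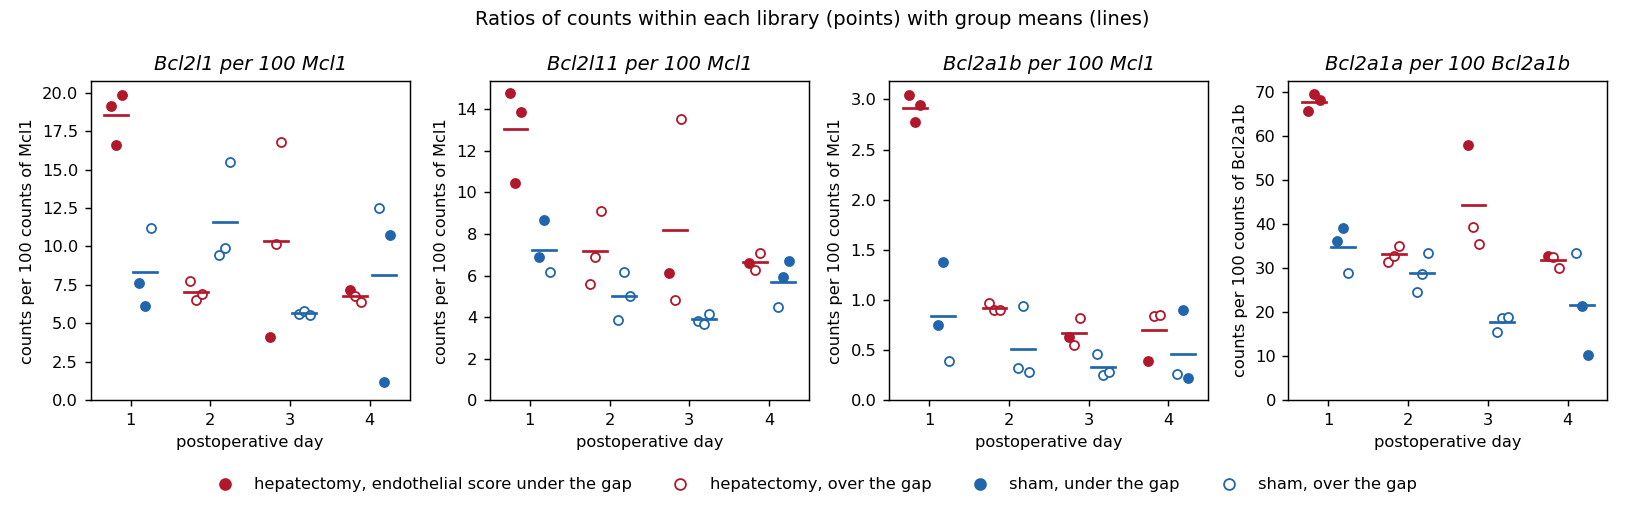
Counts of Bcl2l1, Bcl2l11 and Bcl2a1b per 100 counts of Mcl1, and of Bcl2a1a per 100 counts of Bcl2a1b, in each library by postoperative day, hepatectomy left of sham, with group means as lines and filled points for the 9 libraries of low endothelial score. On POD1 the hepatectomy points lie above the sham points in all 4 panels, for example at 16.6 to 19.8 against 6.14 to 11.2 for Bcl2l1.

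On POD2 no member passed (edgeR; 0.0977% of all genes were called, 0.0349% higher and 0.0628% lower), 3 had an unadjusted p under 0.05, DESeq2 called 0 (1.47% of all genes) and limma voom with quality weights 5 (32.7% of all genes). The groups did not overlap for 6 members, 5 of them higher after hepatectomy, where 44.6% of all genes did not overlap. Mcl1 had 1904, 1328 and 1652 CPM in hepatectomy POD2, against 825, 791 and 607 CPM in sham POD2. Its log2 fold change was 1.14 ± 0.65 (edgeR adjusted p = 0.619). Bcl2l11 had 107, 91.4 and 150.2 CPM after hepatectomy, against 32.0, 48.9 and 30.3 CPM after sham, a log2 fold change of 1.65 ± 0.69 (edgeR adjusted p = 0.488). Bcl2a1b had 18.5, 11.9 and 14.8 CPM in hepatectomy POD2, against 2.64, 7.45 and 1.70 CPM in sham POD2. All 3 genes were at a small part of their POD1 hepatectomy level. The composition differed on POD2 as well: the endothelial score was 10.3 to 10.6 after hepatectomy and 11.1 to 11.4 after sham, and the summed neutrophil markers were 19644.5 to 30422.5 CPM after hepatectomy and 3723 to 8824 CPM after sham. Neither overlapped, so operation and composition cannot be told apart on POD2 either. Bak1 had 94.2, 84.7 and 84.7 CPM after hepatectomy, against 70.1, 61.7 and 64.7 CPM after sham. Bcl2 was lower, at 8.89, 10.3 and 9.96 CPM after hepatectomy and 10.9, 10.4 and 11.7 CPM after sham, a gap of less than 1 CPM between the nearest libraries.

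On POD3 no member passed in edgeR (0.0209% of all genes were called), 1 had an unadjusted p under 0.05, DESeq2 called 1 (2.06% of all genes) and limma voom 4 (26.4% of all genes). The gene called by DESeq2 was Bak1, which encodes the mitochondrial effector BAK. It had 134, 85.0 and 89.4 CPM in hepatectomy POD3, against 52.3, 60.9 and 61.8 CPM in sham POD3. The log2 fold change was 0.82 ± 0.23 (edgeR adjusted p = 0.186, DESeq2 adjusted p = 0.0241). The library at 134 CPM had an endothelial score of 6.02, against 10.7 to 10.8 in the other libraries of that day. Bcl2l1 was the other member whose groups did not overlap, at 109, 93.6 and 170.4 CPM after hepatectomy and 73.9, 81.9 and 76.9 CPM after sham, where 17.0% of all genes did not overlap. On POD4 no member passed in edgeR (0% of all genes were called), none had an unadjusted p under 0.05, DESeq2 called 0 (0.237% of all genes) and limma voom 5 (50.6% of all genes). The groups overlapped for all 10 genes on POD4, where 5.06% of all genes did not. Mcl1, for example, had 3728, 1056 and 1249.9 CPM in hepatectomy POD4, against 743, 3954 and 3165 CPM in sham POD4, and the high values in both groups were the low-score libraries.

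**Figure D4:**
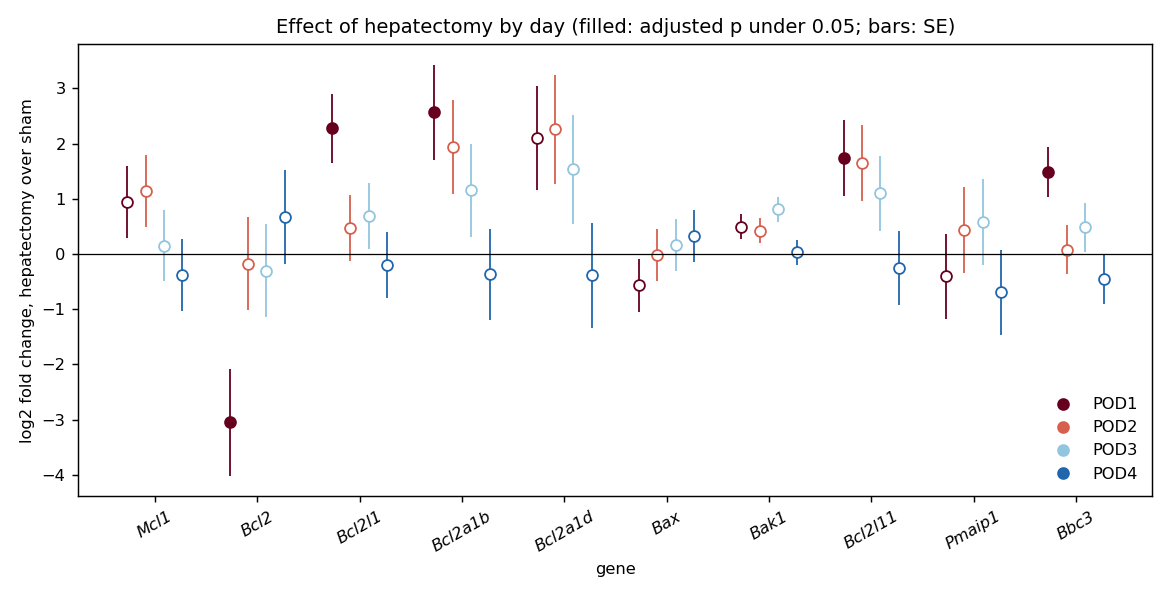
Log2 fold change of hepatectomy over sham with its approximate SE for each gene on POD1 to POD4; filled points passed an adjusted p of 0.05 in edgeR. Only POD1 has filled points, 5 of 10, and the POD4 values of the 4 genes that rose on POD1 all lie below 0.

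Over the 4 days with equal weights, 3 of the 10 members rose and none fell (edgeR; 14.0% of all genes were called, 6.04% higher and 7.99% lower). Bak1 rose with the smallest change of the 3, a log2 fold change of 0.44 ± 0.11 (edgeR adjusted p = 0.0147), and stayed past the threshold in all 24 fits without 1 library. It lost the call with library size alone and with no filter on low counts. Bcl2a1b (1.32 ± 0.42, edgeR adjusted p = 0.0422) and Bcl2l11 (1.06 ± 0.34, edgeR adjusted p = 0.0431) rose too, and lost the call in 15 and 16 of those 24 fits. Bak1 alone was called in 14 of the fits, and 5 members were called without replicate 1 of sham POD1. The A1 copies summed gave 1.52 ± 0.44 (edgeR adjusted p = 0.0268). Bcl2a1d at 1.38 ± 0.48 (edgeR adjusted p = 0.0607) and Bcl2l1 at 0.81 ± 0.30 (edgeR adjusted p = 0.0736) did not pass.

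Differences between days were tested within each operation. After hepatectomy, 5 members changed over the days (edgeR; 44.8% of all genes were called): Bcl2l1 (adjusted p = 0.00067), Bcl2a1b (0.0014), Bbc3 (0.0026), Bcl2l11 (0.0064) and Bcl2a1d (0.014). Each was highest on POD1. Bcl2l1 had 865 to 998 CPM on POD1, 86.8 to 147 CPM on POD2, 93.6 to 170.4 CPM on POD3 and 71.9 to 267 CPM on POD4. Against POD1 that was a log2 fold change of -3.02 ± 0.64 on POD2, -2.92 ± 0.64 on POD3 and -2.76 ± 0.64 on POD4. For Bcl2a1b, the values against POD1 were -3.30 ± 0.89, -3.89 ± 0.92 and -3.70 ± 0.91, and for Bbc3 -2.15 ± 0.46, -1.32 ± 0.45 and -1.90 ± 0.46. All 3 genes were thus lower on each later day than on POD1. With the endothelial score as a covariate, 1 of the 10, Mcl1, was called, and none of these 5 (5109 of 14325 genes were called). Within sham, no member passed (edgeR; 0% of all genes were called), 5 had an unadjusted p under 0.05, DESeq2 called 2 (10.7% of all genes) and limma voom 10 (70.1% of all genes). Without replicate 3 of sham POD1 edgeR called 5, and without replicate 1 of sham POD4 it called 4. The interaction of operation and day called no member (edgeR; 8.68% of all genes), with 1 at an unadjusted p under 0.05, 0 in DESeq2 (23.4% of all genes) and 9 in limma voom (72.4% of all genes). Without replicate 1 of hepatectomy POD3 it called Bbc3, and without replicate 1 of sham POD4 it called Bcl2.

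The effect on POD4 was also set against that on POD1, a test added after the data were seen. It called 3 of the 10 members, Bcl2 higher and Bcl2l1 and Bbc3 lower (edgeR; 28.5% of all genes were called, 19.4% higher and 9.03% lower). Bcl2l1 had 267, 71.9 and 79.9 CPM in hepatectomy POD4 and 93.0, 48.2 and 339 CPM in sham POD4, so its groups overlapped there, unlike on POD1.

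Other genes of the pathway were counted from lists written with earlier results of these data known. Of 13 tested genes out of 16 further BCL2 relatives, 4 rose and 4 fell on POD1, with a median log2 fold change of 0.19 against -0.42 over all genes. Over all genes, 13.0% were called higher and 28.0% lower that day. Bcl2l13, a mitophagy receptor of the outer mitochondrial membrane, had 66.5 ± 8.71 CPM in hepatectomy POD1 and 27.2 ± 2.66 CPM in sham POD1 (SD, n = 3 each), a log2 fold change of 1.29 ± 0.18 (edgeR adjusted p = 8.86e-05). Bcl2a1a, another A1 copy, had 101 ± 3.20 CPM after hepatectomy and 9.45 ± 7.78 CPM after sham, a log2 fold change of 3.43 ± 0.92 (edgeR adjusted p = 0.0078). Bok, a relative of the effectors, and Bik, a BH3-only gene, fell by 3.56 and 4.00 on the log2 scale. Bok stood at 1.76 ± 0.402 CPM after hepatectomy and 20.6 ± 21.7 CPM after sham, so its sham libraries scattered widely. Over the 4 days, 5 of the 13 relatives rose and none fell (6.04% and 7.99% over all genes). Those that rose included Bcl2l15 (2.80 ± 0.76) and Bnip3 (0.92 ± 0.25), a mitophagy receptor.

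Downstream of the mitochondria, 5 of 20 genes of the apoptosome, caspases and their inhibitors rose on POD1 and 5 fell, where 13.0% of all genes were called higher and 28.0% lower. Casp8, the initiator caspase of death receptors, had 159.7 ± 21.1 CPM in hepatectomy POD1 and 65.3 ± 22.4 CPM in sham POD1, a log2 fold change of 1.29 ± 0.30 (edgeR adjusted p = 0.0036). Casp6, an executioner caspase, rose by 1.84 ± 0.45 (edgeR adjusted p = 0.0047). Htra2, a mitochondrial protease that binds inhibitors of apoptosis, had 5.06 ± 0.337 CPM after hepatectomy and 17.0 ± 0.748 CPM after sham and fell by 1.75 on the log2 scale (SE 0.26, edgeR adjusted p = 0.00014). Casp2 fell by 1.36 (SE 0.26, edgeR adjusted p = 0.0011).

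Of 14 tested genes out of 15 on the p53 pathway list, none rose and 3 fell on POD1 (13.0% and 28.0% over all genes), with a median of -0.51 against -0.42 over all genes. Sesn1, Zmat3 and Phlda3, all p53 targets, fell by 2.76, 2.64 and 2.48 on the log2 scale. Their sham libraries scattered widely, for example at 8.31 to 44.6 CPM for Sesn1 and 2.13 to 16.1 CPM for Zmat3. Bbc3, which rose, is a p53 target as well. Cdkn1a and Mdm2 of this list were not called on POD1, but in TMM-scaled CPM their groups did not overlap. Cdkn1a had 746 to 847 CPM in hepatectomy POD1 and 48.8 to 415 CPM in sham POD1. Mdm2 had 350 to 377 and 52.0 to 215 CPM in the same order. Of all genes, 49.4% had groups that did not overlap that day. Over the 4 days 1 gene of this list rose and 1 fell (6.04% and 7.99% over all genes). Cdkn1a, the p53 target that encodes the cell cycle inhibitor p21, had a log2 fold change of 1.43 ± 0.35 (edgeR adjusted p = 0.0108). Sesn1 had one of -0.97 ± 0.26 (edgeR adjusted p = 0.0208). Of 8 tested genes out of 9 on the list for MCL1 turnover, 2 rose and 2 fell on POD1 (13.0% and 28.0% over all genes). The deubiquitinase gene Usp9x, whose product stabilises MCL1, rose by 0.91 ± 0.34 (edgeR adjusted p = 0.0394), and March5, a mitochondrial ubiquitin ligase gene, by 0.91 ± 0.16 (edgeR adjusted p = 4.0e-04). Dusp6, a phosphatase of ERK, fell by 1.91 and Btrc, a ubiquitin ligase subunit, by 1.06 on the log2 scale. On POD2, POD3 and POD4 none of these 4 lists had a member past the threshold in edgeR (0.0977%, 0.0209% and 0% of all genes).

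The genes whose pattern over the 24 libraries was most like that of a member were found by Pearson's r of log2(CPM + 1) among 9221 genes. They were Stk40 for Mcl1 (r = 0.993), Rdh11 for Bcl2l1 (r = 0.970), Tgif1 for Bcl2a1b (r = 0.981) and Bcl2a1d (r = 0.979), Ell2 for Bcl2l11 (r = 0.988), Slc44a1 for Bbc3 (r = 0.947), Dpep2 for Bak1 (r = 0.918), N4bp2l1 for Pmaip1 (r = 0.935), Enoph1 for Bax (r = 0.953) and Tmem201 for Bcl2 (r = 0.982). For Bbc3, the death receptor gene Fas came second (r = 0.913), and for Bcl2a1b the interleukin 1 receptor antagonist gene Il1rn (r = 0.980). All points share the same libraries, which fall into the sets of low and high endothelial score, so these values are descriptions.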

How the data were processed

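Raw counts by gene symbol were deposited for 24 libraries. Per the submitters' processing notes, the authors used cutadapt, STAR 2.4.2a and HTSeq with GRCm38; the annotation release and the strand setting are not given in the sources used here. Totals were 10390216 to 16949088 counts a library, so the spread between libraries, not counting error, limits all but the lowest values.

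Differential expression was tested in edgeR 4.0.16 (R 4.3.3) with TMM scaling, filterByExpr and the quasi-likelihood F test, in 1 two-sided fit with a mean for each of 8 groups (16 residual degrees of freedom), with Benjamini-Hochberg adjustment over 14325 genes at 0.05. An approximate SE was taken from the fold change and its F value. Code was tested on simulated counts. Symbols were placed with GENCODE M21. Alternatives were DESeq2 1.42.0, limma 3.58.1 voom with quality weights, other scalings and filters, fits of 1 day or operation, a replicate block, A1 copies summed, and leaving out each library; the endothelial covariate, a fit without 4 late libraries and the contrast of the POD4 and POD1 effects were added after seeing the data. Members, lists and tests were chosen with earlier results of these data known. Named were all 10 members, up to 4 genes of lowest p per list, and the genes of most like pattern (mean of at least 5 CPM).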

Additional observations from a re-analysis of the deposited data

Results flagged for a closer look

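The effect of hepatectomy differed between POD4 and POD1 for 3 of the 10 members in a test of that difference, which was added after the data were seen (edgeR; 28.5% of all genes were called). For Bbc3, the log2 fold change at POD4 minus that at POD1 was -1.95 ± 0.63 (edgeR adjusted p = 0.0308). For Bcl2l1 it was -2.48 ± 0.86 (edgeR adjusted p = 0.0387). For Bcl2 it was 3.73 ± 1.28 (edgeR adjusted p = 0.0382). The test of the interaction over all 4 days called none of the 3. Leaving out 1 library in turn gave -2.31 to -1.44 for Bbc3, -3.35 to -1.30 for Bcl2l1 and 1.83 to 5.37 for Bcl2, and the calls were lost in 6, 8 and 8 of 24 such fits. None of the 3 was called without replicate 1 or 2 of hepatectomy POD1, replicate 2 or 3 of hepatectomy POD4, or replicate 3 of sham POD1. With the endothelial score as a covariate the values were -0.94 for Bbc3 (edgeR adjusted p = 0.240), -1.35 for Bcl2l1 (edgeR adjusted p = 0.213) and -0.48 for Bcl2 (edgeR adjusted p = 0.446).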

How the results depend on the processing

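Counts of members called, of 10, changed as follows. On POD1 (5 called in edgeR), DESeq2 called 7 (45.9% of all genes) and limma voom 8 (55.1%). The fit of that day's libraries alone called 2 (2404 of 11750 genes), and the endothelial covariate 2 (6485 of 14325 genes). On POD2 (0 called), limma voom called 5 (32.7% of all genes) and the covariate 1 (1171 of 14325 genes). The fit of that day alone called 5 (3802 of 13145 genes). On POD3 (0), DESeq2 called 1 (2.06% of all genes), limma voom 4 (26.4%) and the covariate 1 (1352 of 14325 genes). On POD4 (0) limma voom called 5 (50.6%). Over the 4 days (3), DESeq2 called 5 (23.3% of all genes) and limma voom 6 (36.3%). The covariate called 5 (5173 of 14325 genes), and the fit without the 4 late low-score libraries 5 (4928 of 15035 genes). For the interaction (0), limma voom called 9 (72.4% of all genes) and the covariate 1 (5104 of 14325 genes). The fit without those 4 libraries called 2 (3762 of 15035 genes). For days after hepatectomy (5) the counts were 8 in DESeq2 (54.9% of all genes) and 10 in limma voom (83.6%). They were 1 with the covariate (5109 of 14325 genes) and 9 without the 4 libraries (9455 of 15035 genes). For days within sham (0) they were 2 in DESeq2 (10.7%), 10 in limma voom (70.1%) and 3 without the 4 libraries (1506 of 15035 genes). For the POD4 minus POD1 difference in effect (3), limma voom called 7 (60.8% of all genes). Library size alone called 1 (6784 of 14325 genes) and no low-count filter 1 (2811 of 27740 genes). Leaving out 1 library in turn gave 1 to 6 on POD1, 1 to 5 over the 4 days, 0 to 1 for the interaction, 4 to 7 for days after hepatectomy, 0 to 5 for days within sham, 0 to 6 for the POD4 minus POD1 difference, and 0 on POD2, POD3 and POD4. Signs were reversed at POD1 for Bak1 with library size alone (-0.44), for Mcl1 (-0.67), Bcl2 (0.62) and Bax (0.79) with the covariate, and for Pmaip1 without replicate 2 of sham POD1 (0.59, with a range of -0.91 to 0.59 over all fits without 1 library), and for Bcl2 in the POD4 minus POD1 difference with the covariate (-0.48); the cause was not tested.

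Over all genes, limma voom called 26.4% to 83.6% in these comparisons and DESeq2 0.237% to 54.9%.

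Of 12 same-numbered pairs of hepatectomy and sham libraries, 3 had deviations that correlated above 0.1 (range -0.863 to 0.192). On POD4 the low-score libraries carry different replicate numbers in hepatectomy and sham. Composition thus enters these correlations, and they cannot tell whether the libraries were paired. With a replicate block, 4 members were called on POD1 (Bcl2l11 lost, edgeR adjusted p = 0.0633), where 5397 of 14325 genes were called. Over the 4 days 3 were called (Bcl2a1d in place of Bcl2l11, 1735 of 14325 genes). For days after hepatectomy 5 were called (5924 of 14325 genes), and for the POD4 minus POD1 difference 1 (2739 of 14325 genes).

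At this depth Bcl2 in hepatectomy POD1 rests on 5 to 14 counts a library and Bcl2a1d in sham on 5 to 79, so both are imprecise there. The covariate is computed from the same libraries, and at POD1 it extrapolates, since all hepatectomy scores lie below all sham scores.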
